A study of Mus musculus with 13 samples.

Results

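The genes described here encode, in the nucleus, the proteins of respiratory complexes II, III and V of the inner mitochondrial membrane, together with cytochrome c. They were chosen by name as the protein-coding genes whose symbols start with Uqcr, Atp5 or Sdha to Sdhd, plus Cyc1, Cycs and Bcs1l. Of 42 candidates by name, 6 were pseudogenes and were left out (Uqcrh-ps1, Uqcrh-ps2, Atp5l-ps1, Atp5l-ps2, Atp5k-ps2 and Atp5l2-ps), which left 36 genes of the 47937 in the count table. They comprise 8 genes of complex II, of which 4 encode assembly factors (Sdhaf1 to Sdhaf4), 10 of complex III, of which Bcs1l is an assembly factor, the single gene Cycs and 17 of complex V. The complex V genes with other symbols, such as Usmg5, were not taken in by the rule.

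RNA was sequenced from DN3 and DN4 thymocytes, the CD4- CD8- precursors on either side of β-selection, freshly sorted from C57BL/6 mice aged 6 weeks. Opa1fl/fl;Lck-Cre+ mice, in which Cre driven by the Lck promoter deletes Opa1 within the T lineage, were compared with WT;Lck-Cre+ mice, so that every mouse carried Lck-Cre. Opa1 encodes the GTPase that fuses the inner mitochondrial membrane and keeps its cristae in shape. By the numbers in their labels, the 13 libraries came from 7 mice. Of these, 3 mice of each genotype gave both stages (KO45, KO49, KO51, WT05, WT46 and WT48) and WT40 gave DN4 only. This makes 3 DN3 KO, 3 DN3 WT, 3 DN4 KO and 4 DN4 WT libraries.

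Complex II (succinate dehydrogenase) oxidizes succinate in the citric acid cycle and passes the electrons to ubiquinone. Complex III (the cytochrome bc1 complex) moves electrons from ubiquinol to cytochrome c while pumping protons, cytochrome c carries them on to complex IV, and complex V (ATP synthase) lets the protons back through its rotating ring of c subunits to make ATP. Every subunit of complex II is encoded in the nucleus, whereas complex III contains 1 subunit encoded by mitochondrial DNA, cytochrome b (mt-Cytb), and complex V contains mt-Atp6 and mt-Atp8. Cytochrome c is also the protein that, once released into the cytosol, starts the apoptosome, and β-selection is a step at which thymocytes either proliferate or die.

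Libraries held 5926848 to 14148661 counts, with a median of 10023044. In the DN3 library of WT05, 41.5% of counts fell on ribosomal RNA-like genes against 0.442% to 1.75% in the other libraries, which left 3467641 counts for all other genes, so values without it are given beside the results it moves. The Opa1 level, in CPM (counts scaled to library size, with TMM factors), was 90.5 ± 2.79 in DN3 KO (SD, n = 3), 98.1 ± 11.7 in DN3 WT (n = 3), 82.0 ± 5.51 in DN4 KO (n = 3) and 88.9 ± 3.92 in DN4 WT (n = 4). Counts summed over the gene do not show which exons were read, and because they overlapped between genotypes these libraries are called KO-labelled below. The study itself reported an efficient loss of OPA1 protein, from immunoblots of thymocyte lysates. The 9 DN3 markers summed to 3482 to 4825 CPM in DN3 and 857 to 2391 CPM in DN4, and the 6 markers of double-positive and immature single-positive cells to 140 to 253 CPM and 570 to 3357 CPM. The 7 B cell markers also differed between the stages, with sums of 285 to 426 CPM in DN3 and 885 to 4976 CPM in DN4, none of them at 0 in any group. The 5 plasmacytoid dendritic cell markers summed to 258 to 463 CPM in DN3, where 1 was at 0 in both groups, and to 522 to 982 CPM in DN4. The 6 markers of NK and innate lymphoid cells summed to 239 to 292 CPM in DN3 WT and 353 to 447 CPM in DN4 WT, and to 276 to 326 CPM in DN3 KO and 228 to 330 CPM in DN4 KO, with 3 of them at 0 in DN3 of both genotypes and none in DN4. The 5 γδ T cell markers summed to 946 to 1782 CPM in DN3 and 706 to 2064 CPM in DN4, with none at 0 in any group, and the 8 thymic stroma markers to 164 to 293 CPM and 138 to 273 CPM, with 3 (KO) and 4 (WT) of these at 0 in DN3 and 1 in DN4 of each genotype. Myeloid markers (7) summed to at most 33.7 CPM and erythroid markers (6) to at most 6.18 CPM in any library. In sorted bulk samples, fewer cells of a type cannot be told apart from less RNA per cell.

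The members' sequences bear on what the counts can resolve. Atp5g1, Atp5g2 and Atp5g3 each encode the ring subunit c with a different import presequence, and the mature protein is the same, so that in this stretch the genes differ at silent positions. Their shares of the subunit c RNA are compared below, and the last 90 coding bases of each are therefore shown, 5′ to 3′, from the last coding exon on GRCm38, at chr11:96073104-96073193 for Atp5g1, chr15:102663014-102663103 for Atp5g2 and chr2:73908593-73908682 for Atp5g3, all on the minus strand. Capitals mark the 24 positions at which the 3 genes are not all alike.
Atp5g1: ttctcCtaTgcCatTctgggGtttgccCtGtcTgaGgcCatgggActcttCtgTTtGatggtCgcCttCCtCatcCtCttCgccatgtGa
Atp5g2: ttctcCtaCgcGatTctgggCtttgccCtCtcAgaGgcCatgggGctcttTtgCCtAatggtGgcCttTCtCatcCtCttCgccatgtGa
Atp5g3: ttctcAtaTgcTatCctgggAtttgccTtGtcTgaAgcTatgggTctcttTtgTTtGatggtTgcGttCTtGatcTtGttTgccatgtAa
Over the last 228 coding bases, Atp5g1 and Atp5g2 were 85.1% identical, Atp5g1 and Atp5g3 79.8%, and Atp5g2 and Atp5g3 78.5%. Other loci were closer than these paralogs. Of the 50-base windows of the shortest principal transcript, 66.0% for Atp5g1, 100% for Atp5g2 and 28.5% for Cycs also occurred in transcripts of other genes, chiefly the processed copies Gm10039, Gm10175 and Gm10053, against 0 for Atp5g3 and Bcs1l. These copies held few counts, at 0.268% to 1.63% of those of Atp5g1, 0.910% to 2.82% of those of Atp5g2 and 0.645% to 2.74% of those of Cycs. Atp5l (84.85%), Atp5h (66.6%) and Uqcrb (43.4%) also shared windows, chiefly with Gm10221, Gm10250 and Gm16089. The copy of Atp5l held 1.835% to 4.11% of its counts. Sdhaf1 (69.0%), Atp5o (50.3%) and Atp5f1 (38.7%) shared most with genes annotated on the opposite strand. How reads that match both a gene and another locus were counted is not given in the sources used here. The levels of Atp5g1, Atp5g2, Cycs and these further members are therefore uncertain.

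Per kilobase of annotated exons, the α and β subunits of ATP synthase stood above all other members. With CPM divided by the kilobases of all annotated exons, DN3 WT thymocytes had 371 ± 37.9 CPM per kb of Atp5b, the catalytic β subunit, and 329 ± 32.0 of Atp5a1, the α subunit (SD, n = 3). Atp5h (150), Atp5c1 (132), Uqcr10 (125) and Atp5g3 (117 CPM per kb) followed. At the low end were Sdhaf2 (6.51), Sdhaf1 (3.73), Atp5s (3.14) and Sdhaf3 (1.31 CPM per kb), so that 3 of the 4 assembly factors of complex II were among the 4 lowest members. The order rests on the length used: with the shortest principal transcript, a length chosen after seeing the data, Atp5b had 819 and Atp5a1 418 CPM per kb with Atp5h (452) between them, and Atp5g1 moved from 29.2 to 241 CPM per kb. Of the 10 highest members by exon length, 6 were also among the 10 highest by that length. Together the 36 genes took 0.576% to 0.800% of each library's counts once ribosomal RNA-like genes were set aside, and these ranges overlapped across all 4 groups (0.667% to 0.800% in DN3 KO, 0.576% to 0.787% in DN3 WT, 0.580% to 0.752% in DN4 KO and 0.581% to 0.755% in DN4 WT).

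**Figure D1:**
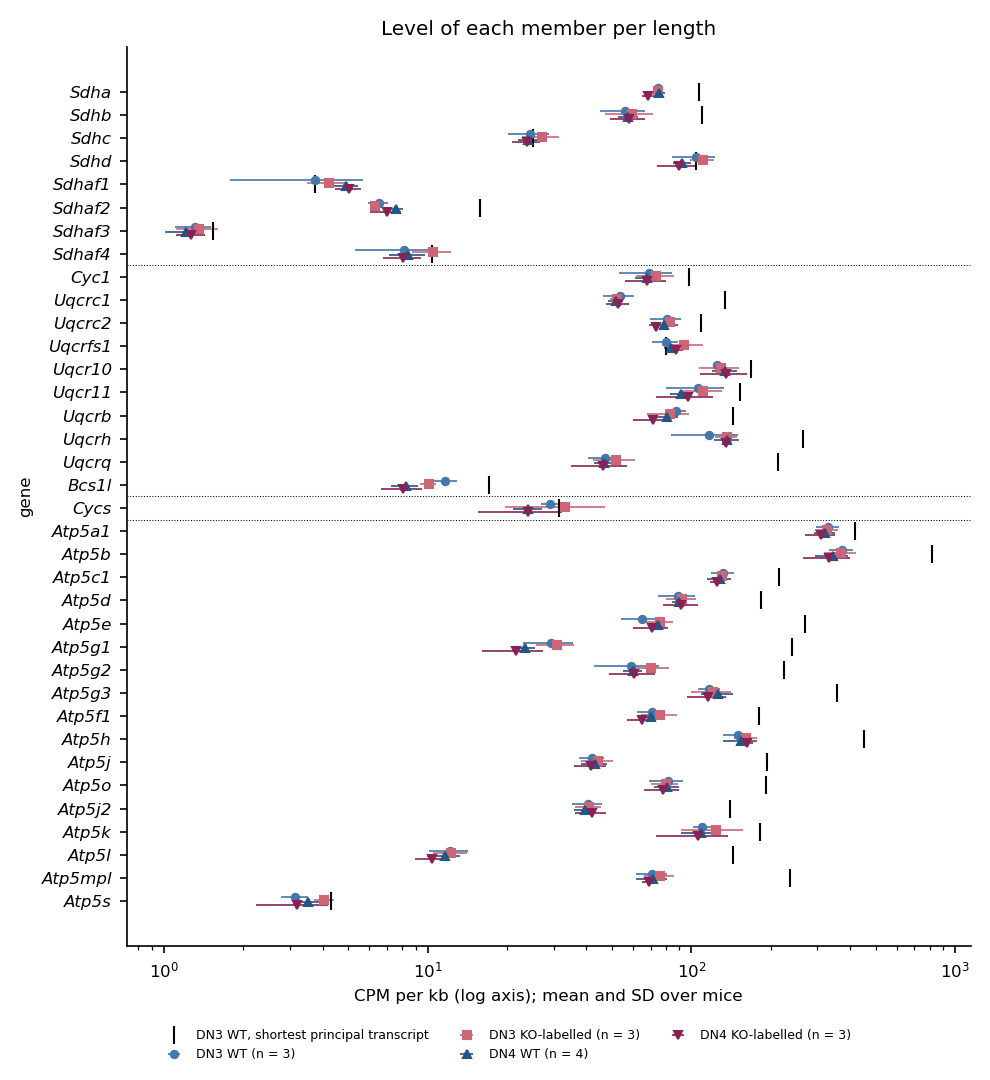
Level of each of the 36 genes per length, as mean and SD over mice of CPM per kb of annotated exons on a log axis, with 1 symbol for each of the 4 groups; black bars give the DN3 WT mean per kb of the shortest principal transcript. Atp5b (371) and Atp5a1 (329 CPM per kb in DN3 WT) stand highest by exon length and Sdhaf3 (1.31) lowest, and for most genes the 4 symbols lie close together.

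Between DN3 and DN4 in WT;Lck-Cre+ mice, 1 of the 36 members was called, against 22.9% of all genes. The quasi-likelihood test of edgeR, with p-values adjusted by Benjamini and Hochberg, called 2903 of 12691 genes, and the member called, the complex III assembly factor Bcs1l, was lower in DN4. All 36 members passed the filter on low counts in every comparison. Their median log2 fold change was -0.03, beside -0.03 over all genes tested, with a range from -0.53 to 0.31 and 24 members below zero. Without the DN3 library of WT05 the median was -0.15, beside 0.001 over all genes, with a range from -0.62 to 0.14 and 31 members below zero. It was above zero without DN3 of WT46 (0.019, 16 members below zero), DN3 of WT48 (0.005, 18) or DN4 of WT48 (0.005, 16), so the sign of the median rests on single libraries. With all libraries in, the change was smaller than 0.5 in size for 35 of the 36 members and for 65.5% of all genes, and for 25 members the whole 95% interval lay within 0.5 of zero.

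In complex II, Sdha is the flavoprotein that oxidizes succinate. In DN3 WT its level was 295, 318 and 315 CPM in WT05, WT46 and WT48, and in DN4 WT it was 311, 321, 322 and 286 CPM in WT05, WT40, WT46 and WT48. The groups overlapped, with a log2 fold change of -0.02 ± 0.10 (SE). Sdhb, the iron-sulfur subunit, stood at 97.0, 141 and 137 CPM in DN3 and 124, 138, 139 and 116 CPM in DN4. Of the membrane anchors, Sdhc was at 63.4, 86.6 and 88.3 CPM in DN3 and 78.2, 78.9, 84.8 and 69.8 CPM in DN4. For Sdhd, the other anchor, the values were 102, 134 and 148 CPM in DN3 and 116, 118, 120 and 100 CPM in DN4, a log2 fold change of -0.20 ± 0.14 that did not pass the test. For each of Sdhb, Sdhc and Sdhd the lowest DN3 library was WT05 and the lowest DN4 library WT48. The 4 assembly factors had log2 fold changes of -0.12 to 0.31, none of them called, and Sdhaf1 in the DN3 library of WT05 (3.80 CPM, against 11.1 and 12.99 in the other DN3 WT libraries) was the widest spread of any member, with a coefficient of variation of 52.2%.

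In complex III no core subunit was called. Cyc1, cytochrome c1, was at 110, 165 and 171 CPM in DN3 WT and at 131, 161, 159 and 136 CPM in DN4 WT. Uqcrfs1, the Rieske iron-sulfur protein, was at 95.6, 112 and 119 CPM in DN3 and 107, 115, 124 and 111 CPM in DN4. The core proteins that scaffold the matrix side also overlapped between stages, Uqcrc1 at 187, 241 and 237 CPM against 200, 232, 215 and 208 CPM, and Uqcrc2 at 174, 225 and 218 CPM against 208, 218, 215 and 164 CPM. All 4 had fitted changes between -0.08 and 0.04 on the log2 scale. Of the 5 small supernumerary subunits, none was called, and their changes ran from -0.25 (Uqcr11) to 0.19 (Uqcrh).

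Bcs1l encodes the AAA ATPase that inserts the Rieske protein into complex III, and lies at chr1:74588289-74592443. Its level was 22.2, 27.5 and 26.8 CPM in DN3 WT and 16.1, 17.4, 17.8 and 21.1 CPM in DN4 WT. Each DN4 library was below each DN3 library, with a log2 fold change of -0.53 ± 0.15 (edgeR quasi-likelihood, Benjamini-Hochberg adjusted p = 0.0385). Among all genes, 15% did not overlap between the stages with DN4 lower, and 9.43% were called lower. The call was close to the threshold. With mouse as a replicate block, which leaves out WT40 for want of a DN3 library, the adjusted p was 0.0976 (edgeR quasi-likelihood). The call was also lost without the DN3 library of WT46 or WT48. The same held without any 1 of the DN4 libraries of WT05, WT40 and WT46. The substrate of this factor, Uqcrfs1, had a log2 fold change of 0.04 ± 0.11.

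In complex V no subunit of the catalytic head was called in WT mice. Atp5b was at 1387, 1637 and 1686 CPM in DN3 and 1432, 1590, 1631 and 1172 CPM in DN4. Atp5a1 was at 916, 1089 and 1091 CPM against 1017, 1064, 1064 and 877 CPM, and Atp5c1, the γ subunit that turns inside the head, at 223, 261 and 269 CPM against 253, 251, 264 and 208 CPM. Log2 fold changes were -0.13 ± 0.17, -0.06 ± 0.14 and -0.07 ± 0.12. The stalk that holds the head still (Atp5f1, Atp5h, Atp5j and Atp5o) had fitted changes from -0.03 to 0.02. Atp5e, the small ε subunit, was the only member whose DN4 WT libraries all lay above the DN3 WT libraries, at 92.0, 125 and 125 CPM against 133, 130, 136 and 126 CPM, with a log2 fold change of 0.18 ± 0.13 that did not pass the test. Non-overlap in that direction was seen for 20% of all genes.

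The lowest fitted changes after that of Bcs1l were those of Atp5g1, a subunit c gene, and Cycs. Atp5g1 was at 109, 154 and 167 CPM in DN3 WT and 102, 119, 127 and 111 CPM in DN4 WT, a log2 fold change of -0.35 ± 0.16 (edgeR quasi-likelihood, adjusted p = 0.151). Cycs was at 90.6, 101 and 104 CPM against 87.7, 81.6, 90.7 and 67.6 CPM, a log2 fold change of -0.30 ± 0.12 (adjusted p = 0.127). In both genes WT05 was the lowest DN3 library and overlapped with DN4. Of the other subunit c genes, Atp5g2 was at 68.4, 107 and 121 CPM in DN3 and 93.2, 103, 111 and 94.1 CPM in DN4, and Atp5g3 was at 228, 261 and 275 CPM in DN3 and 262, 295, 315 and 229 CPM in DN4. Without the DN3 library of WT05, where 25.7% of all genes were called (11.4% lower), 3 members were called and all were lower: Bcs1l (log2 fold change -0.62, adjusted p = 0.0201), Atp5g1 (-0.52, 0.0165) and Uqcr11 (-0.43, 0.0442).

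**Figure D2:**
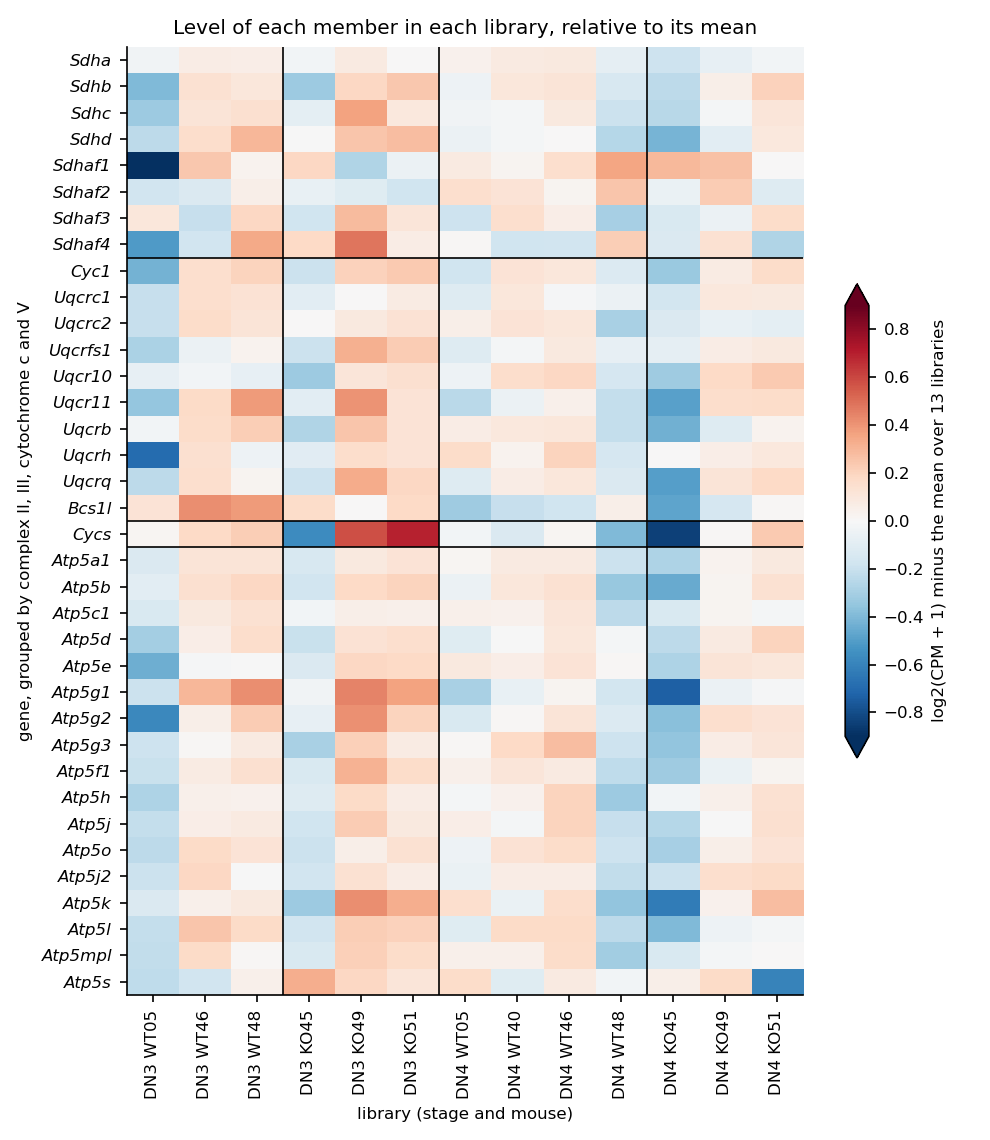
Level of each of the 36 genes in each of the 13 libraries, ordered by complex and role. Colour gives log2(CPM + 1) of a library minus the gene's mean over the 13 libraries; the columns of KO45 in both stages, of WT05 in DN3 and of WT48 in DN4 are low across most genes.

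In Opa1fl/fl;Lck-Cre+ mice the same stage comparison called 2338 of 12580 genes (18.6%) and none of the members, with Atp5g1 the 1 member under an unadjusted p of 0.05. DESeq2 and limma-voom also called 0 members. The median of the members was -0.14 beside -0.02 over all genes, and 32 of the 36 had a value below zero. With each of the 6 libraries left out the median ran from -0.25 without DN3 of KO45 to -0.06 without DN4 of KO45, where 27 were below zero and the median of all genes was -0.05. The spread between these 3 mice was wide and followed the mouse. Cycs was at 60.03, 134 and 145 CPM in DN3 of KO45, KO49 and KO51 and at 49.4, 89.9 and 105 CPM in DN4 of the same mice. Its coefficients of variation were 41.0% in DN3 and 35.4% in DN4 of KO-labelled mice against 7.22% and 12.5% in WT. Atp5g1 was at 122, 170 and 161 CPM in DN3 and at 74.6, 121 and 124 CPM in DN4. For both genes KO45 was lowest at each stage, and each mouse had less RNA in DN4 than in DN3.

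Values of the other members below are given for KO45, KO49 and KO51 in that order, DN3 before DN4. In complex II, Sdha was at 298, 320 and 303 CPM and then at 266, 288 and 297 CPM, and Sdhd at 120, 143 and 146 CPM and then at 89.7, 113 and 128 CPM. Sdhb ran from 102, 145 and 152 CPM to 108, 133 and 148 CPM and Sdhc from 75.1, 103 and 85.5 CPM to 67.1, 78.8 and 85.9 CPM, so that only Sdha had all DN4 libraries below all DN3 libraries. In complex III the same held for Uqcrc2, at 201, 213 and 220 CPM and then at 184, 192 and 189 CPM. No other member was apart in this way, whereas 16.7% of all genes were with DN4 lower and 22% with DN4 higher. Uqcrc1 (202, 216 and 228 CPM, then 193, 231 and 230 CPM) and Uqcrfs1 (102, 146 and 136 CPM, then 110, 122 and 124 CPM) overlapped between the stages. Cyc1 was at 117, 156 and 166 CPM in DN4, and its DN3 values are set beside those of WT mice further on. Bcs1l was at 22.9, 20.3 and 23.1 CPM and then at 14.3, 18.2 and 20.5 CPM, a log2 fold change of -0.35 ± 0.18 (edgeR quasi-likelihood, adjusted p = 0.226). In complex V, Atp5a1 was at 910.1, 1066 and 1095 CPM and then at 829, 1024 and 1068 CPM, Atp5b at 1315, 1679 and 1706 CPM in DN3, and Atp5c1 at 241, 254 and 253 CPM and then at 223, 248.97 and 242 CPM. Atp5a1 and Atp5c1 were lower in DN4 in each of the 3 mice, with overlapping groups. Of the subunit c genes, Atp5g2 was at 97.8, 137 and 118 CPM and then at 78.8, 114 and 112 CPM, and Atp5g3 at 212, 301 and 274 CPM and then at 203, 272 and 280 CPM.

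With mouse as a replicate block, which compares the stages within each KO-labelled mouse, 37.2% of all genes were called (18% lower) and 7 of the 36 members, all lower in DN4. The largest was Atp5g1, with a log2 fold change of -0.57 ± 0.09 (edgeR quasi-likelihood with block, adjusted p = 0.00125), and the next Cycs, with -0.49 ± 0.09 (adjusted p = 0.00366). The others were Sdhd (-0.36, adjusted p = 0.00952), Atp5k (-0.29, 0.0490), Atp5l (-0.28, 0.0297), Atp5f1 (-0.28, 0.0285) and Atp5g2 (-0.26, 0.0397). A share of 7 in 36 was near the background of genes called lower. With 1 mouse left out of this fit, an alternative added after seeing the data, 2 mice remained. Then 2 members were called without KO45 (28.4% of all genes), 2 without KO49 (27%) and 4 without KO51 (29.8%). All were lower, with Atp5g1 and Cycs among them each time. Of the 7 called with all 3 mice, 5 belong to complex V, which holds 17 of the 36 members. None belongs to complex III, which holds 10. In WT mice the block, on WT05, WT46 and WT48, called none of the members and 19.7% of all genes.

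The RNA of both genotypes was then fitted together within mouse, an analysis added after the values had been seen. Over the 6 mice with both stages, 40.6% of 13717 genes were called (17.6% lower) and 3 of the 36 members, again all lower in DN4. They were Atp5g1 with a log2 fold change of -0.43 ± 0.09 (95% interval -0.63 to -0.23, edgeR quasi-likelihood with Benjamini-Hochberg adjusted p = 0.00362), Cycs with -0.36 ± 0.09 (-0.57 to -0.15, adjusted p = 0.0106) and Bcs1l with -0.41 ± 0.11 (-0.65 to -0.17, adjusted p = 0.0129). The same 3 genes were called with each mouse left out in turn and by DESeq2. All 36 members changed by less than 0.5 on the log2 scale, against 66.3% of all genes, and for 29 the whole 95% interval lay within 0.5. The median of the members was -0.08, with 28 of the 36 below zero, and it was -0.16 without WT05, with 33 below zero, and -0.03 without WT48. Without WT05 the count was 9, with Sdhd, Atp5l, Uqcr11, Uqcrb, Atp5f1 and Uqcrc2 added, all lower, and 43.7% of all genes (21% lower). Scaled to plain library totals it was 0, and 26.7% of all genes. B cell markers rose from DN3 to DN4 in the same libraries (7 of 7 called higher in each genotype). So did 4 of 5 NK and innate lymphoid markers tested in WT and 3 of 5 in KO-labelled mice, and 2 of 4 plasmacytoid dendritic markers in each genotype, while 1 of the latter fell in KO-labelled mice. Of 5 γδ T cell markers 3 rose and 2 fell in WT, and 1 rose and 2 fell in KO-labelled mice. Of the thymic stroma markers 1 rose and 2 fell of 5 tested in WT, and 2 fell of 4 tested in KO-labelled mice. Of 4 myeloid markers tested 1 rose and 1 fell in WT and 1 fell in KO-labelled mice, and the 1 erythroid marker tested, in WT, rose. The part of these cells in the differences was not tested.

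Counted mouse by mouse on log2(CPM + 1), Atp5g1, Cycs and Bcs1l were lower in DN4 in 6 of 6 mice, which is 8.33% of the members against 17.7% of all genes, and Sdhaf2, which attaches the flavin to Sdha, was higher in 6 of 6, which is 2.78% against 21.9%. The mice differed in the direction of the module as a whole. The median change over the 36 members was -0.32 in WT48, with 33 members lower, -0.15 in KO49 with 31 lower and -0.14 in KO45 with 28 lower. It was nearer zero in KO51 (-0.043) and WT46 (-0.004), and in WT05 it was 0.19, with only 4 members lower. The WT05 value rests on the DN3 library rich in ribosomal RNA-like counts.

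**Figure D3:**
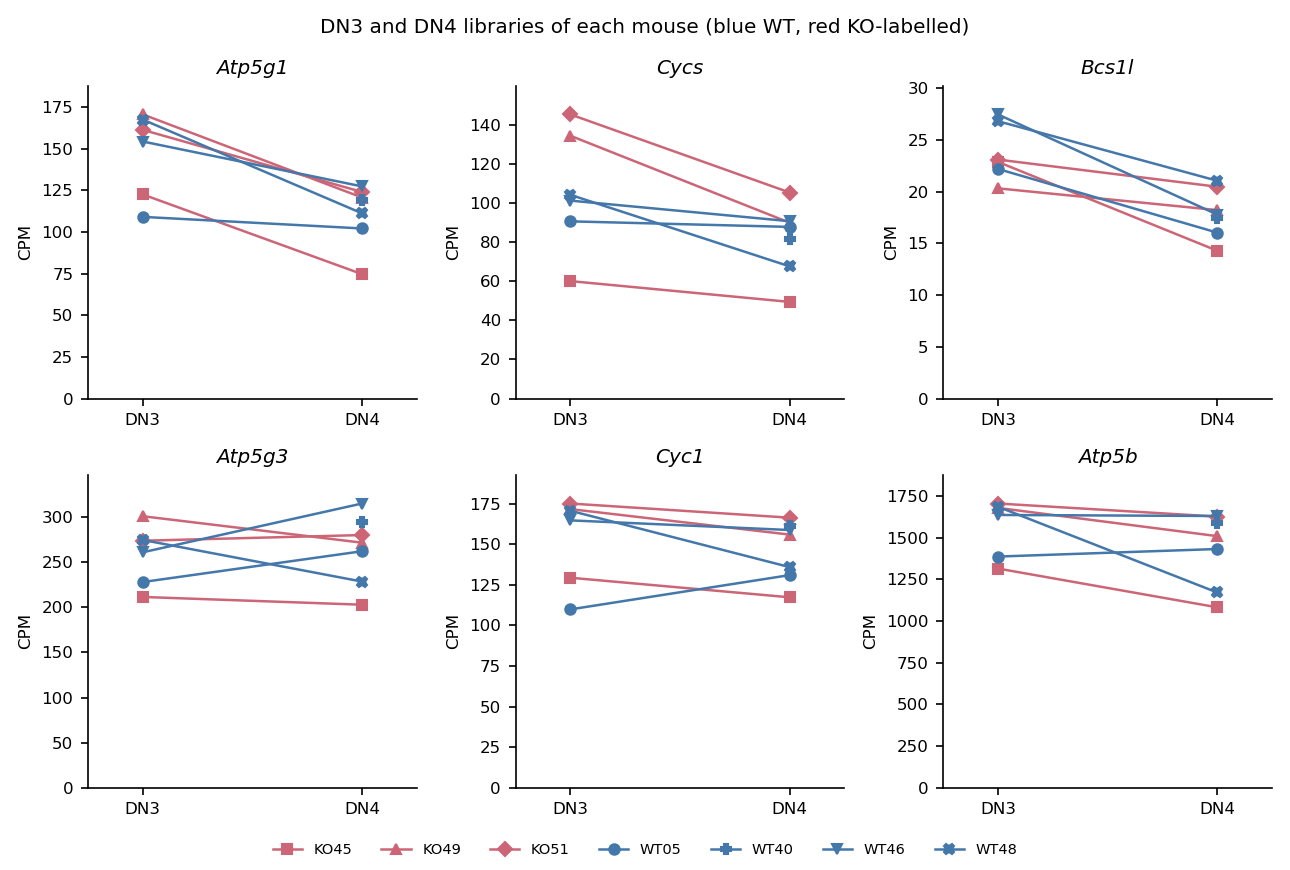
CPM of 6 members in the DN3 and DN4 libraries of each mouse, with lines joining the stages of a mouse, blue for WT and red for KO-labelled mice; WT40 has a DN4 point only. The lines of Atp5g1, Cycs and Bcs1l fall in all 6 mice, those of Atp5g3 in 3, and those of Cyc1 and Atp5b in 5, rising only in WT05, whose DN3 library is rich in ribosomal RNA-like counts.

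The upstream DNA of the 3 genes called within mouse is shown to set their start sites beside the binding letters of factors known for respiratory promoters. NRF1, the ETS factor GABP and YY1 are the classical activators of nuclear respiratory genes. The 250 bases before the annotated start are from RefSeq on GRCm38.p6, at chr6:50566570-50566819 (Cycs, minus strand), chr1:74588039-74588288 (Bcs1l, plus strand) and chr11:96075632-96075881 (Atp5g1, minus strand). Capitals mark NRF1 site letters on the reverse strand in Cycs, 60 bases before the start, and an ETS core on the forward strand in Bcs1l, 47 bases before it. The window of Atp5g1 held none of the letters searched.
Cycs: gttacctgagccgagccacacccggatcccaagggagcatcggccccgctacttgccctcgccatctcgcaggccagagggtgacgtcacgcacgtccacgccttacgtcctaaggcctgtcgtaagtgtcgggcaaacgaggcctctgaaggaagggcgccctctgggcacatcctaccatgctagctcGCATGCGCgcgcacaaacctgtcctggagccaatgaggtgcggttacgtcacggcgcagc
Bcs1l: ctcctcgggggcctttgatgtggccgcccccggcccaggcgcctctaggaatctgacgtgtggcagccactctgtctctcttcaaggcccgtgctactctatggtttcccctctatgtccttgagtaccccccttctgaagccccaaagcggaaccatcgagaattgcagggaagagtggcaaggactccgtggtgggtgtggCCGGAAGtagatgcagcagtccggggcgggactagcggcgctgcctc
Atp5g1: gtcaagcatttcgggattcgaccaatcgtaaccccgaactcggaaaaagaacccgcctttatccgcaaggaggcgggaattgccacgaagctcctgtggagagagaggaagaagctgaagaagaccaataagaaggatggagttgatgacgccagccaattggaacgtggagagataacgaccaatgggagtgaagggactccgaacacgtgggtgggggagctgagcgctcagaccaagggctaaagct
Over windows from 250 bases before to 50 after the start, searched on both strands, 29 of the 36 members were matched. The NRF1 letters GCGCATGC was in 7 of 29 (24.1%), against 3.93% of 17491 protein-coding genes and 3.05% of all 27025 genes. The ETS core CCGGAAG was in 13 of 29 (44.8%), against 12.9% and 9.93%, and the YY1 core AAGATGGC in 3 of 29 (10.3%), against 3.57% and 3.19%. The letters of the 3 motifs do not contain one another. A match describes the letters in the window and is not a measured site.

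The RNA of such factors was measured, but not their protein or binding. From DN3 to DN4 in WT mice, 12 of 13 transcription factors and coactivators of respiratory genes were tested, 1 was called higher and 4 lower. Esrra, an orphan nuclear receptor of oxidative genes, rose (log2 fold change 0.69, adjusted p = 0.0498), while Myc (-0.98, adjusted p = 0.00755), Mycn (-1.85, 0.00632) and the coactivators Ppargc1b (-0.93, 0.0353) and Pprc1 (-0.81, 0.00694) fell. Without the DN3 library of WT05 the adjusted p was 0.0953 for Esrra and 0.0595 for Ppargc1b. Esrra was not called with any 1 of the 7 libraries left out (adjusted p 0.0559 to 0.115, log2 fold change 0.52 to 0.84) or by limma-voom (adjusted p = 0.0698). It was called by DESeq2 (adjusted p = 0.0163) and with mouse as a replicate block (0.77, adjusted p = 0.0239). It was not called with the block without WT05, which rests on WT46 and WT48 only (adjusted p = 0.0749). Ppargc1b was called in 2 of these 7 fits and not with mouse as a replicate block (adjusted p = 0.0826). Myc, Mycn and Pprc1 were called in all 7 and with the replicate block, and without WT05 the block called Myc and Mycn but not Pprc1 (-0.51, adjusted p = 0.086). Nrf1 (-0.08), Gabpa (0.06), Yy1 (0.14) and Tfam (0.05) were not called. In KO-labelled mice Myc (-0.96, adjusted p = 0.0248) and Mycn (-2.09, 0.00271) were called, both lower, and no other factor. Mycn was called with each of the 6 libraries left out, and Myc in 3 of these 6 fits, with the loss on leaving out DN3 of KO49 or KO51 or DN4 of KO49 (adjusted p up to 0.0695). With mouse as a replicate block Myc was called (-1.03, adjusted p = 0.000356). Of 5 further complex III assembly factors, Uqcc2 was called lower in WT (-0.51, adjusted p = 0.0208) and none in KO-labelled mice. With mouse as a replicate block it was not called in WT (adjusted p = 0.0646) and was called lower in KO-labelled mice (-0.39, adjusted p = 0.0166), and in WT it was also lost without DN3 of WT48 (adjusted p = 0.0876) or DN4 of WT05 (0.0636). Of 6 assembly factors and inhibitors of complex V, none was called in WT, and Tmem70 (-0.51, adjusted p = 0.0245) and Tmem242 (-0.73, 0.00329) were lower in KO-labelled mice. Tmem242 was called with each of the 6 libraries left out, and Tmem70 without DN3 of KO45 or DN4 of KO51 but not without any of the other 4 (adjusted p up to 0.0825). The log2 fold change of Tmem70 stayed at -0.59 to -0.46 in these fits, and the replicate block called it (-0.53, adjusted p = 0.00539). Nuclear genes of complex I (46 Nduf genes, 45 tested) had 1 gene called lower in each genotype, and those of complex IV (18 Cox4 to Cox8 genes, 13 tested in WT and 14 in KO-labelled mice) likewise 1. Their medians were -0.04 and 0.01 in WT, and -0.09 and -0.07 in KO-labelled mice. These p-values, too, come from the edgeR quasi-likelihood fits and carry the Benjamini-Hochberg adjustment over all genes.

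Between genotypes no member was called in DN3. The test called 0 of 12105 genes (0%), with 168 genes and none of the members under an unadjusted p of 0.05, and DESeq2 called 3 genes, none of them a member. The members' median was 0.06 beside -0.01 for all genes, the range -0.22 to 0.36, and the 95% interval lay within 1 on the log2 scale for 35 of 36 and within 0.5 for 19. Without the DN3 library of WT05 the median was -0.05 and the range -0.30 to 0.31, again with 0 genes called (220 under an unadjusted p of 0.05). Without DN3 of KO49 the median was -0.002, and over the 6 libraries left out in turn it reached 0.17, without KO45. Cyc1 was at 129, 172 and 175 CPM in the KO-labelled libraries of KO45, KO49 and KO51 and at 110, 165 and 171 CPM in those of WT05, WT46 and WT48. Each genotype held 1 low and 2 high libraries. Atp5s, a factor B homolog coupled to ATP synthase, was the only member without overlap, at 9.06, 8.11 and 7.64 CPM in KO-labelled libraries against 5.84, 6.10 and 7.26 CPM in WT. Its log2 fold change was 0.36 ± 0.24 (adjusted p = 1), and 3.1% of all genes did not overlap in that direction.

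In DN4 the edgeR test called 7 of 13084 genes (0.0535%), none of them a member. No member was under an unadjusted p of 0.05 or called by DESeq2 or limma-voom. Over all genes DESeq2 called 51 (0.414%) and limma-voom 8. The edgeR count of all genes was 0 without KO49, KO51, WT05, WT40 or WT46, 2 without KO45 and 8 without WT48. The members' median was -0.01 and their range -0.15 to 0.12 (20 below zero), with the 95% interval within 0.5 on the log2 scale for 32 of the 36 and within 1 for all 36. The median was 0.10 without KO45 (range -0.21 to 0.29, 8 below zero) and -0.07 without WT48 (27 below zero), and the other 5 fits with a library left out lay between. No member's groups were apart, against 2.74% of all genes with KO-labelled higher and 4.35% with KO-labelled lower. The 3 members with the smallest p were Uqcrb, Sdha and Atp5j2. Uqcrb, the ubiquinone-binding protein of complex III, was at 51.8, 64.7 and 71.7 CPM in KO-labelled and 73.5, 74.9, 75.3 and 60.2 CPM in WT libraries. Its log2 fold change was -0.15 ± 0.14 (edgeR quasi-likelihood, adjusted p = 0.934). Sdha was at 266, 288 and 297 CPM against 311, 321, 322 and 286 CPM (-0.10 ± 0.09). Atp5j2, the f subunit of the membrane part, was at 117, 148 and 151 CPM against 128, 140, 140 and 114 CPM (0.12 ± 0.12). Atp5b was at 1082, 1510 and 1627 CPM in KO-labelled libraries, beside the WT values given above, and differed by -0.02 ± 0.17.

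The interaction of stage and genotype was called for 0 of 13361 genes (0%, with 480 under an unadjusted p of 0.05) and for 0 of the members, with or without mouse as a block. The members' median was -0.12, and 31 of 36 were negative. Without the DN3 library of WT05 the median was -0.01, with 21 negative, and without the DN4 library of KO45 it was 0.009, with 17 negative. It was -0.05 without DN3 of KO49 and -0.22, the lowest of the 13 such fits, without DN3 of KO45. The intervals were wide, within 0.5 on the log2 scale for 9 members and within 1 for 33, so a moderate difference in the stage change between genotypes was not detectable for most.

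**Figure D4:**
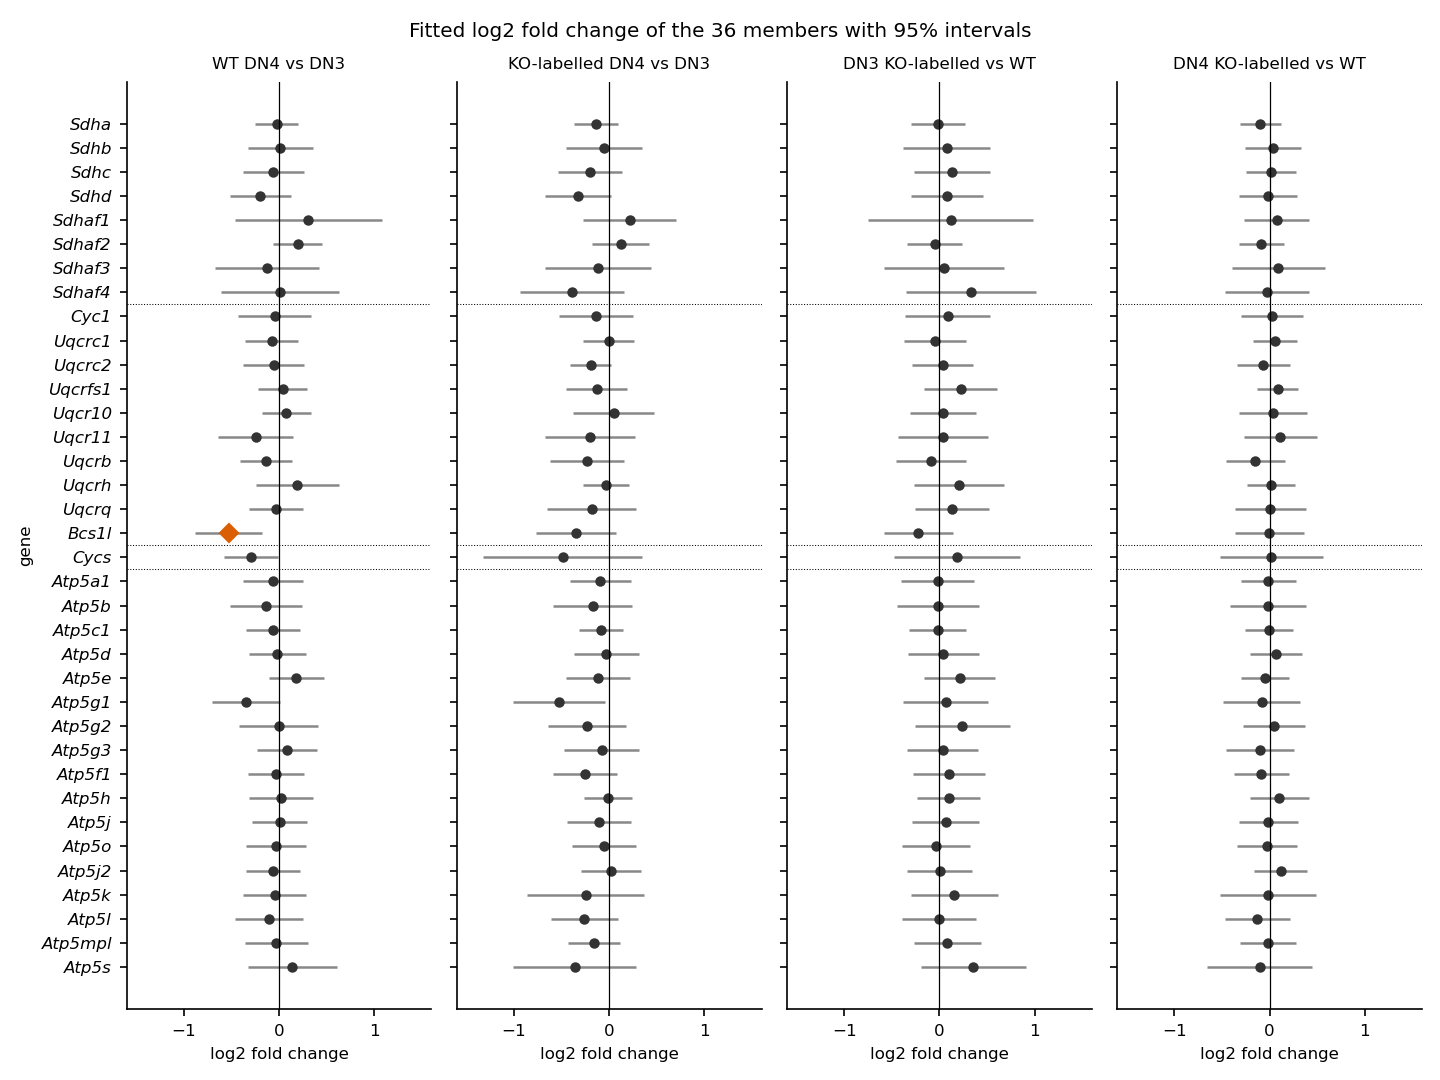
Fitted log2 fold change of each of the 36 genes with its 95% interval in 2 comparisons of stage and 2 of genotype; an orange diamond marks adjusted p below 0.05. Bcs1l in the WT stage comparison is the only diamond, and the DN4 genotype values lie closest to zero, between -0.15 and 0.12.

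The members tended to be low or high together in the same library. KO45 was the lowest of the 3 KO-labelled mice for 31 of the 36 members in DN3 (86.1%, against 40.5% of all genes) and for 32 in DN4 (88.9%, against 37.8%). In WT mice the lowest library differed between stages: WT05 was lowest for 34 members in DN3 (94.4%, against 47.5% of all genes) and WT48 for 24 in DN4 (66.7%, against 31.8%). In DN4, WT46 was highest for 24 members (66.7%, against 21.7% of all genes) and KO51 for 27 (75.0%, against 33.6%). WT48, the lowest in DN4, was highest in DN3 for 22 members (61.1%, against 29.7%). The F1 genes show the width of this order, since their summed level ran from 2384 to 3271 CPM among KO-labelled DN4 libraries and from 2553 to 3281 CPM among WT DN4 libraries.

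Ratios within a library do not depend on its scaling. The 24 ratio comparisons below were chosen after the values had been seen, each by a 2-sided exact permutation test. Within 6 mice the smallest exact p is 0.03125. Atp5g1 supplied 28.6% ± 1.08 of the counts of the 3 subunit c genes in DN3 and 23.3% ± 1.597 in DN4 (SD, n = 6 mice), lower in 6 of 6 mice with a difference of -5.33 ± 1.36 percentage points (exact p = 0.03125, adjusted p = 0.188 over the 24). Atp5g3 supplied 50.5% ± 2.85 and 55.3% ± 1.99, higher in 6 of 6 (exact p = 0.03125, adjusted p = 0.188). Atp5g2 held 20.9% and 21.4% (exact p = 0.656). In each mouse, then, Atp5g1 made up less and Atp5g3 more of the subunit c counts in DN4, but no ratio passed the adjusted threshold. Without WT05, the Atp5g1 share was lower in 5 of 5 mice, by -5.48 points, at exact p = 0.0625, the smallest that 5 mice allow. Between genotypes, the Atp5g1 share in DN3 was 28.5% in KO-labelled and 28.7% in WT libraries, and in DN4 22.9% ± 1.72 (n = 3) and 23.5% ± 1.46 (n = 4, exact permutation p = 0.657). The Atp5g2 share was 22.2% ± 0.687 in KO-labelled and 19.6% ± 2.41 in WT libraries in DN3 (exact p = 0.2, adjusted p = 0.48), where WT05 was lowest at 16.9%. In DN4 it was 22.1% ± 0.418 (n = 3) and 20.5% ± 0.778 (n = 4, exact p = 0.0571, adjusted p = 0.229), and the lowest KO-labelled and the highest WT library were both at 21.7%. The Atp5g3 share was 49.3% and 51.7% in DN3 (exact p = 0.5), where the WT mean without WT05 was 49.4%. In DN4 it was 55.0% and 56.0% (exact p = 0.543).

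Cycs, set against its membrane-bound partner Cyc1, went from 68.8 ± 14.8 counts per 100 of Cyc1 in DN3 to 56.1 ± 9.06 in DN4 (SD, n = 6), lower in 6 of 6 mice (exact p = 0.03125, adjusted p = 0.188). Without WT05 the difference was -12.0 ± 7.93, lower in 5 of 5 (exact p = 0.0625, the smallest possible). Complex II had 13.5 counts per 100 of complex V at both stages (exact p = 0.812, n = 6), and complex III had 23.9 in DN3 and 24.8 in DN4 (exact p = 0.188). Without WT05 the differences were 0.0215 (exact p = 0.875, n = 5) and 0.684 (exact p = 0.375). Between genotypes the ratios of complexes II and III to complex V differed by at most 0.885 counts per 100 at either stage.

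The subunit of complex III that mitochondrial DNA encodes was measured beside the nuclear ones. In DN4, mt-Cytb had 89.8, 81.8 and 101 counts per 100 counts of the nuclear complex III subunits in mice KO45, KO49, KO51 in that order, and 272, 235, 267 and 223 in WT05, WT40, WT46 and WT48. The groups did not overlap, at 90.9 ± 9.68 (n = 3) and 249.4 ± 24.1 (n = 4), with exact permutation p = 0.0286, the smallest that 3 against 4 allow, and adjusted p = 0.188. In the gene-level fit mt-Cytb was one of the 7 genes called, with a log2 fold change of -1.44 ± 0.17 (edgeR quasi-likelihood, adjusted p = 0.0455). The call was kept by DESeq2, limma-voom and the fit without WT48 and lost without each of the other 6 DN4 libraries (adjusted p 0.104 to 0.37), where the log2 fold change ran from -1.58 to -1.36. Each of those values comes from an alternative added after seeing the data. In DN3 the ratio was 177, 112 and 158 in KO-labelled libraries and 698, 222 and 183 in WT05, WT46 and WT48, without overlap but with the highest WT value from the library rich in ribosomal RNA-like counts (exact p = 0.1, the smallest possible). The gene-level difference in DN3 was -1.14 ± 0.40 with that library and -0.51 ± 0.15 without it, called in neither (adjusted p = 1). From DN3 to DN4, mt-Cytb was called lower in KO-labelled mice (-0.80, adjusted p = 0.0180) and not in WT mice (-0.46, adjusted p = 0.404), and the interaction was not called (-0.35 ± 0.44, adjusted p = 1). The call in KO-labelled mice was lost without the DN3 library of KO45 (adjusted p = 0.0524) or KO51 (0.056), and with mouse as a replicate block mt-Cytb was called (-0.82, adjusted p = 0.000328). Without the DN3 library of WT05 the WT change turned to 0.15 ± 0.16 (adjusted p = 0.533), and the interaction was -0.95 ± 0.26, again not called (adjusted p = 1). WT46 and WT48 had more mt-Cytb per nuclear complex III count in DN4 than in DN3. For complex V the partners had few counts, at 3 to 24 per library for mt-Atp6 and 0 to 12 for mt-Atp8. Shared sequence was searched for the nuclear members only, and how reads with several matches were counted is not given. The levels of mt-Atp6 and mt-Atp8 are therefore uncertain, and why their counts were low was not tested. Per 100 counts of the nuclear complex V subunits, mt-Atp6 was at 0.0134, 0.00432 and 0.00986 in DN4 of KO45, KO49 and KO51 and at 0.0431, 0.0315, 0.0338 and 0.0179 in DN4 of WT05, WT40, WT46 and WT48. These groups did not overlap (exact permutation p = 0.0571, adjusted p = 0.229). In DN3 they overlapped, at 0.0100 to 0.0470 against 0.0234 to 0.0842 (exact p = 0.5). The gene-level log2 fold change of mt-Atp6 between genotypes in DN4 was -1.87 ± 0.51 and did not pass the edgeR quasi-likelihood test (adjusted p = 0.809).

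**Figure D5:**
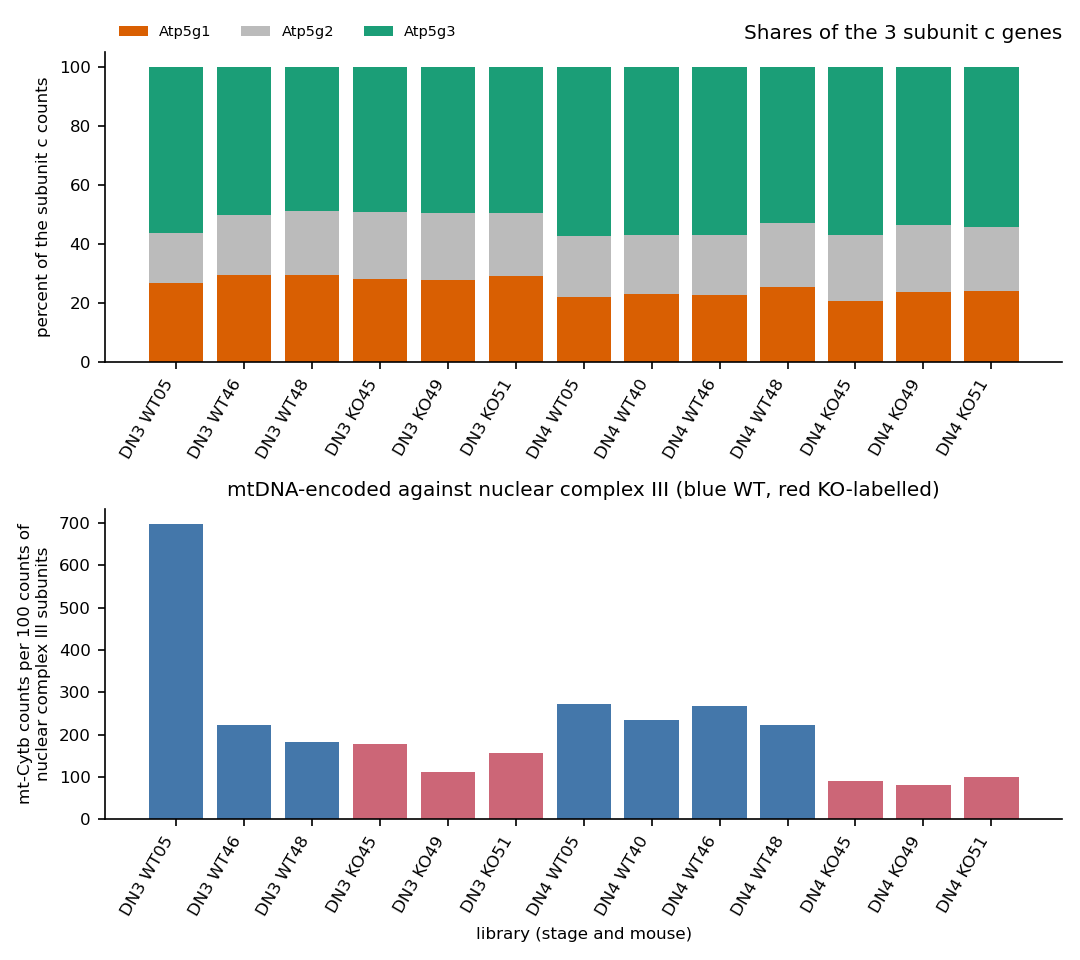
Top, share of the subunit c counts from Atp5g1, Atp5g2 and Atp5g3 in each library; bottom, mt-Cytb counts per 100 counts of nuclear complex III subunits in each library, blue for WT and red for KO-labelled mice. The Atp5g1 share is lower in DN4 (23.3% on average) than in DN3 (28.6%), and the DN4 KO-labelled libraries (81.8 to 101) lie below the DN4 WT libraries (223 to 272).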

How the data were processed

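RNA of 13 libraries was analysed from the table of read counts per gene that the authors deposited. Per the study's methods, RNA (RNeasy) went into stranded TruSeq mRNA libraries sequenced on an Illumina HiSeq, and reads were trimmed with Cutadapt, mapped with STAR and counted with featureCounts; the labels name mm10, and versions and the handling of reads with several matches are not given in the sources used here. The counts were whole numbers and 0 columns were left unused. Identifiers were matched without version to GENCODE M21 on GRCm38 (47310 of 47937), which gave lengths and positions, and promoter sequence came from RefSeq.

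The groups of each comparison were fitted by themselves with edgeR 4.0.16 in R 4.3.3 (filterByExpr with a minimum count of 10, TMM, quasi-likelihood test), with Benjamini-Hochberg adjustment over all genes and a threshold of 0.05. The alternatives used DESeq2 1.42.0, limma 3.58.1, other scalings, filters, samples and lengths. Scripts were tested on simulated data with known changes. Within-mouse differences used log2(CPM + 1), with genes above 1 CPM in 3 libraries as background. Replicates are mice. Library labels carry numbers, which were taken as mouse numbers to pair the libraries. The deviations of a mouse's DN3 and DN4 libraries from their group means correlated at 0.118 to 0.522 over 13361 genes in all 6 mice. Libraries with different numbers were not compared in this way, so these correlations cannot show that the pairing is right.

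Values per library are given for the catalytic and core subunits, Cycs, Bcs1l, the subunit c genes, up to 5 members per direction called in WT and the 3 with the smallest p per genotype comparison; others were named after their values were seen. Fits of list genes with libraries left out were also added then. The members and lists were chosen with earlier results of these data known. A gene at few counts is measured only coarsely, and intervals cover the spread between mice.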

Additional observations from a re-analysis of the deposited data

Results flagged for a closer look

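Among 44 values tested for a library that stands apart in DN4 WT (groups of 4), 2 stood apart, and chance gives about 1 in 20. Both were WT48. Uqcrb was at 60.17 CPM there and at 73.52 to 75.3 CPM in the other DN4 WT mice, and Atp5g3 supplied 52.71% of the subunit c counts there and 56.92% to 57.33% in the others. WT48 was also the lowest DN4 WT library for 24 of the 36 members.

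For Atp5e, the differences between stages within mice had opposite signs in the genotypes, and neither stage comparison called it. On log2(CPM + 1), DN4 minus DN3 was -0.15 to -0.07 in the 3 KO-labelled mice and 0.01 to 0.53 in the 3 WT mice. Atp5e is 2.78% of the members, and 0.639% of all genes had this pattern. The interaction tests this difference and did not call it (log2 -0.2995, SE 0.2, adjusted p = 1 by the edgeR quasi-likelihood test), and the highest WT value comes from WT05.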

How the results depend on the processing

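The 1 member called from DN3 to DN4 in WT became 0 with plain library totals, with all genes of at least 1 count and with mouse as a replicate block. The count was also 0 with that block without WT05 (WT46 and WT48 only, an alternative added after seeing the data). With each library left out it ran from 0 to 3. The 0 members of the KO-labelled stage comparison became 7 with the replicate block, where the genes called overall went from 2338 to 4899. The 3 members of the within-mouse fit of both genotypes, itself added after seeing the data, ran from 3 to 9 with each mouse left out and became 0 with plain library totals. The median of the members in DN3 between genotypes was 0.26 with library totals, beside 0.23 over all genes, so relative to all genes it stayed near zero. The replicate block changed no other count of members called. The order of levels kept 6 of the 10 highest members with the shortest principal transcript. Of 1634 values of the 19 members given per library, 1621 kept their side of the threshold, 5 passed it and 8 no longer did, and 151 changed sign without being called in either. Calls gained by other members are given above. Causes were not tested. Depth limits the low members most, such as Sdhaf1, Sdhaf3, Sdhaf4 and Atp5s below 15 CPM.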
